A study of Mus musculus with 6 samples.

Results

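Wnt pathway genes were examined in the lungs of young male mice with and without an active human SRY transgene. The members are the array's probes whose gene symbol names a Wnt ligand, an R-spondin, a Frizzled receptor, a Dkk or Sfrp inhibitor, an Axin or a Dishevelled, together with Lrp5, Lrp6, Ror1, Ror2, Porcn, Wif1, Apc, Nkd1, Lef1, Tcf7l1 and Tcf7l2. They were chosen by name and not by level, though with earlier results of these data known. They comprise 74 of the 25697 probes and 54 of the 18138 gene symbols. Axin1, Fzd9 and Tcf7l1 had no row among the values used here and were not analysed here.

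The study asked what the male-determining gene of humans does when it is switched on throughout a mouse. Total RNA of whole lung from 6 FVB males at postnatal day 6 was hybridised to Illumina MouseRef-8 BeadChips, 1 array for each mouse. The groups are hSRY-OFF and hSRY-ON, with 3 mice each. Per the study's methods, the hSRY-OFF name stands for mice whose Signalox-hSRY transgene, a single copy at the H11 locus, had not been recombined. In hSRY-ON mice a DsRed2 cassette had been cut out by Cre from Ddx4-Cre mothers at the single-cell stage, which placed FLAG-tagged human SRY and EGFP under the ubiquitous CAG promoter. The hSRY-ON mice of the arrays did not inherit Ddx4-Cre themselves, and FVB/N is the strain named in the methods. The CAG promoter is active in most tissues, so the transgene is not specific to the lung. The study also uses the word control for littermates without the transgene, while its methods name the mice of the arrays hSRY-OFF, as the labels do. The labels do not say whether the mice came from separate litters. The p-values set the difference between groups against the spread within these groups of 3 and 3 samples, estimated with the other tested probes taken into account.

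Wnt proteins are secreted, lipid-modified signals that bind Frizzled receptors with a co-receptor, Lrp5 or Lrp6 for the β-catenin branch and Ror1 or Ror2 for branches without β-catenin. When the β-catenin branch is on, β-catenin escapes destruction by the Axin and Apc complex, enters the nucleus and acts with TCF and LEF proteins on target genes. In the lung, Wnt signals pass between mesenchyme and epithelium, specify the organ in the embryo and take part in the growth and repair of the alveoli.

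Values are normalized log2 intensities, and changes are hSRY-ON minus hSRY-OFF. A difference of 1 on this scale is 2-fold. A probe counted as detected on an array at a detection p under 0.05 and was tested if 3 or more arrays detected it, and was called at a limma adjusted p under 0.05, adjusted over all 13841 tested probes. Between 13191 and 14134 probes were detected per array. All 7 alveolar type II cell markers examined were tested, Sftpc among them and detected on all arrays. Changes of dim probes are understated on this scale, and the level of a probe cannot be set against that of another probe.

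Of the 74 member probes, 46 were detected on at least 1 array and 28 on none, and 44 probes for 35 genes were tested. The 3 hSRY-OFF arrays detected 44, 45 and 44 of the member probes and the 3 hSRY-ON arrays 38, 39 and 40. Among the 19 genes that were not tested, 17 were detected on no array. They are the ligand genes Wnt1, Wnt2b, Wnt3, Wnt6, Wnt8a, Wnt8b, Wnt9a, Wnt10a and Wnt16, the inhibitor genes Dkk1, Dkk2, Dkk4, Sfrp2, Sfrp4 and Sfrp5, the receptor gene Fzd1 and the Dishevelled gene Dvl3. Wnt9b was detected on 1 hSRY-ON array. Wnt11, a ligand known mainly from β-catenin-independent signalling, was detected on 2 hSRY-OFF arrays and on no hSRY-ON array. Its intensities were 5.14, 5.62 and 5.49 in hSRY-OFF and 4.59, 4.70 and 5.01 in hSRY-ON, all close to the lowest detected level, which lay between 5.21 and 5.45 on the 6 arrays.

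Most of the members that changed were lower in hSRY-ON lungs, with a few clear rises among them. Wnt2, Wnt5a, Rspo2, Rspo4 and Fzd7 fell, while Rspo1, Sfrp1 and Porcn rose. In all, 23 of the 44 tested member probes were called, which is 52.3%, where 26.9% of all tested probes were called. Of these, 18 were lower (40.9%, against 13.3% of all tested probes) and 5 were higher (11.4%, against 13.6%). They stand for 15 genes that fell and 4 that rose. The share of falls was above the background in the fit of all 6 arrays, but not with hSRY-OFF array 2 left out (4.88% of members against 4.85% of all tested probes). The share of rises was close to it. A 2-fold size was passed by 3 called rises and 4 called falls, 7 of 44 probes, where 9.7% of all tested probes were called and changed at least 2-fold. The median change of the tested members was -0.41, where the median over all tested probes was -0.03. The filter kept some probes through their hSRY-OFF arrays alone, among them both Lef1 probes, which count among the 18 called falls. Over all 74 member probes without a filter 19 were called (25.7%, against 13.1% of all probes) with a median change of -0.0497. The groups did not overlap at 30 of the 44 tested members, 22 with hSRY-ON lower and 8 with hSRY-ON higher, where 46.6% of all tested probes had no overlap, 24.1% with hSRY-ON lower and 22.4% with it higher. In whole lung, fewer cells of a type and less RNA per cell cannot be told apart.

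**Figure D1:**
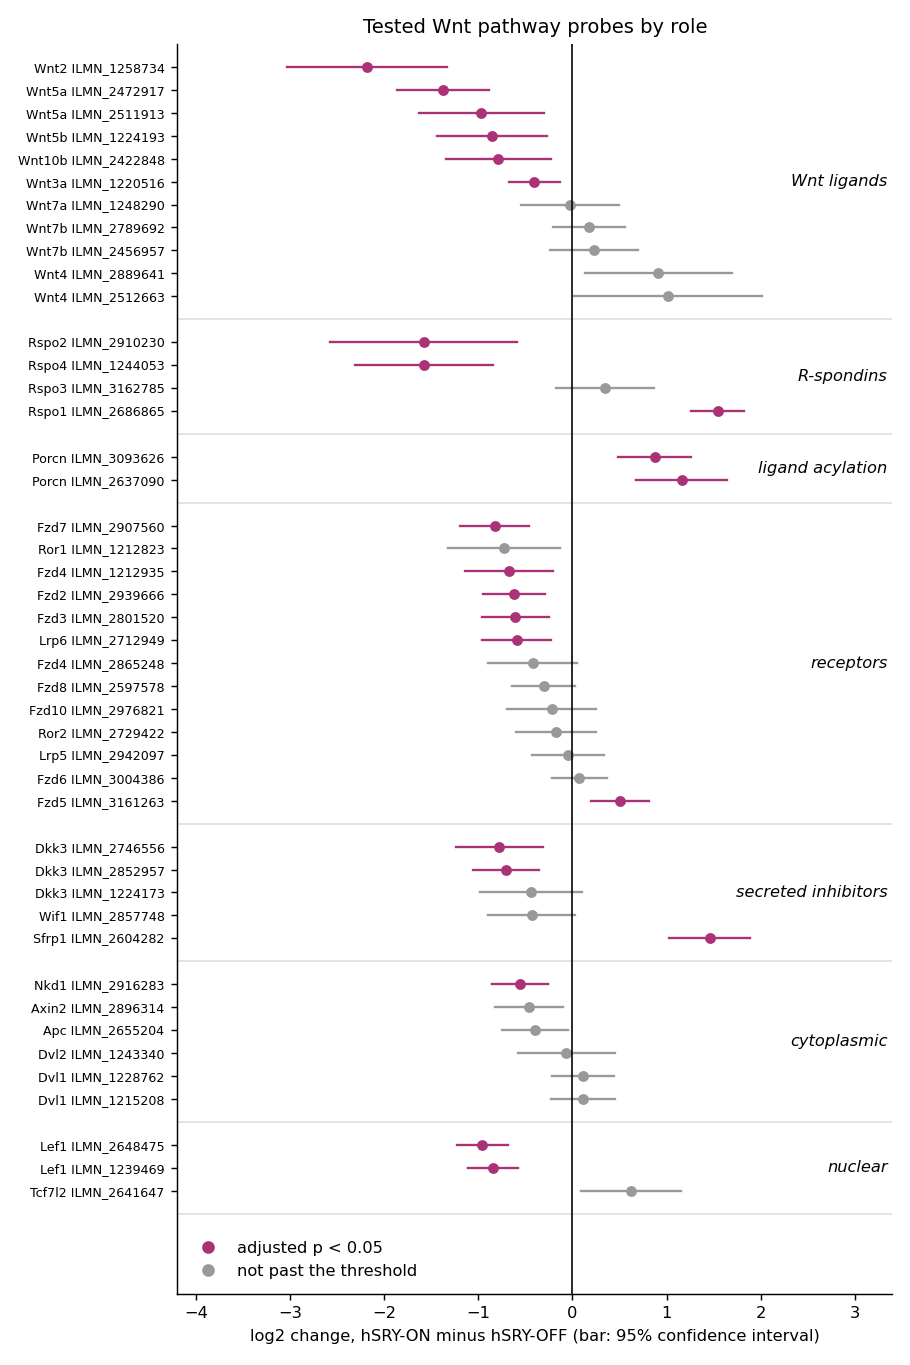
Change of the 44 tested Wnt pathway probes in hSRY-ON against hSRY-OFF lungs, by role. Each point is the log2 change and each bar its 95% confidence interval (3 arrays a group), with probes of an adjusted p under 0.05 in colour. The 18 called falls lie left of 0 in every role other than ligand acylation, and the 5 called rises are Rspo1, Sfrp1, Fzd5 and both Porcn probes. The points of the Lef1 probes are fitted values, which the text gives as bounds.

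The count of calls changed when single arrays were left out. The arrays are numbered as their replicates. With hSRY-OFF array 1 left out the count fell to 8 (19.5% of the members then tested, against 11.2% of all probes), with array 2 to 6 (14.6% against 12.1%), with array 3 to 10 (23.8% against 15.5%) and with hSRY-ON array 2 to 14 (32.6% against 17.7%). With hSRY-OFF array 1 left out there were 5 falls, 12.2% of the members then tested against 4.42% of all tested probes. Array 2 left 2 falls, at the background share, array 3 left 6 (14.3% against 6.94%), and hSRY-ON array 2 left 10 (23.3% against 8.42%). The rises numbered 3 with hSRY-OFF array 1 left out (7.32% against 6.81%) and 8 with hSRY-ON array 1 left out (18.2% against 15.1%), close to the background in both. Of the 19 called genes, Wnt2, Wnt5a, Rspo1, Sfrp1 and Porcn were called in 15 of 15 alternatives by their probe of smallest p, and 13 lost their call in at least 1. Lef1 was called in 11 and had no value in the other 4, the stricter detection filter and the fits without each hSRY-OFF array, because it passed the filter through its 3 hSRY-OFF arrays alone. Its stability against leaving out an hSRY-OFF array was therefore not tested.

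Among the ligands, 6 of 11 tested probes fell (54.5%, against 13.3% of all tested probes) and none was called higher (against 13.6%). Wnt2 is a ligand of the lung mesenchyme and a β-catenin-branch signal in the specification of the lung. It had intensities of 9.33, 9.20 and 9.42 on the hSRY-OFF arrays and of 8.004, 6.44 and 6.97 on the hSRY-ON arrays. Every hSRY-ON array was below every hSRY-OFF array, by 1.20 at the nearest, and the hSRY-ON arrays were spread more widely. The means were 9.32 ± 0.11 (SD, n = 3) and 7.14 ± 0.79 (SD, n = 3), a change of -2.18 (SE 0.36), or 4.54-fold lower (limma adjusted p = 0.00692). It was the largest fall among the tested members.

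Wnt5a, known for β-catenin-independent signalling and for its part in airway and alveolar growth, has 2 tested probes and both fell. The first read 7.46, 7.53 and 6.87 in hSRY-OFF and 5.76, 5.81 and 6.16 in hSRY-ON lungs. The second read 11.12, 11.30 and 11.15 against 10.03, 9.74 and 10.89. On neither probe did the groups overlap, although hSRY-ON replicate 3 came close to hSRY-OFF on the second. The changes were -1.38 (SE 0.21; limma adjusted p = 0.00531) and -0.97 (SE 0.28; adjusted p = 0.0428). The second was called only in part of the alternatives, and not with any hSRY-OFF array or with hSRY-ON array 1 or 2 left out.

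Smaller falls were called at Wnt5b, a relative of Wnt5a, at Wnt10b, known from fat and bone, and at Wnt3a, a classic ligand of the β-catenin branch. Wnt5b read 7.21, 7.19 and 7.44 in hSRY-OFF and 6.08, 6.19 and 6.99 in hSRY-ON (change -0.86, adjusted p = 0.0411). Wnt10b read 6.91, 6.97 and 7.39 against 6.20, 5.94 and 6.77 (-0.79, adjusted p = 0.0485). Wnt3a had the smallest called change of any member, from 10.05, 10.09 and 10.16 to 9.80, 9.60 and 9.68 (-0.41, adjusted p = 0.0385). The groups did not overlap at any of the 3 genes, and hSRY-ON replicate 3 was nearest to hSRY-OFF for Wnt5b and Wnt10b. None of the 3 kept its call when any 1 hSRY-OFF array was left out. Leaving out hSRY-ON array 2 ended all 3 calls as well, array 1 those of Wnt5b and Wnt10b, and array 3 that of Wnt3a. Wnt3a and Wnt10b lie beside Wnt9a and Wnt1 in the genome, and neither neighbour was detected.

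The other tested ligands were not called. Wnt4, which acts in the kidney and the female gonad, was higher on all 3 hSRY-ON arrays by both of its probes. The first probe read 7.89, 7.73 and 7.99 in hSRY-OFF and 8.16, 9.57 and 8.62 in hSRY-ON, with a change of 0.91 and a 95% confidence interval of 0.13 to 1.70 (adjusted p = 0.0824). The second read 6.59, 6.60 and 6.39 against 6.71, 8.57 and 7.36 (change 1.02, adjusted p = 0.117). With array weights, or without hSRY-ON replicate 1, the rise of the first probe passed the threshold. The epithelial ligands Wnt7b and Wnt7a had changes of 0.18 (95% confidence interval -0.21 to 0.56, adjusted p = 0.450) and -0.03 (-0.55 to 0.49, adjusted p = 0.930).

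**Figure D2:**
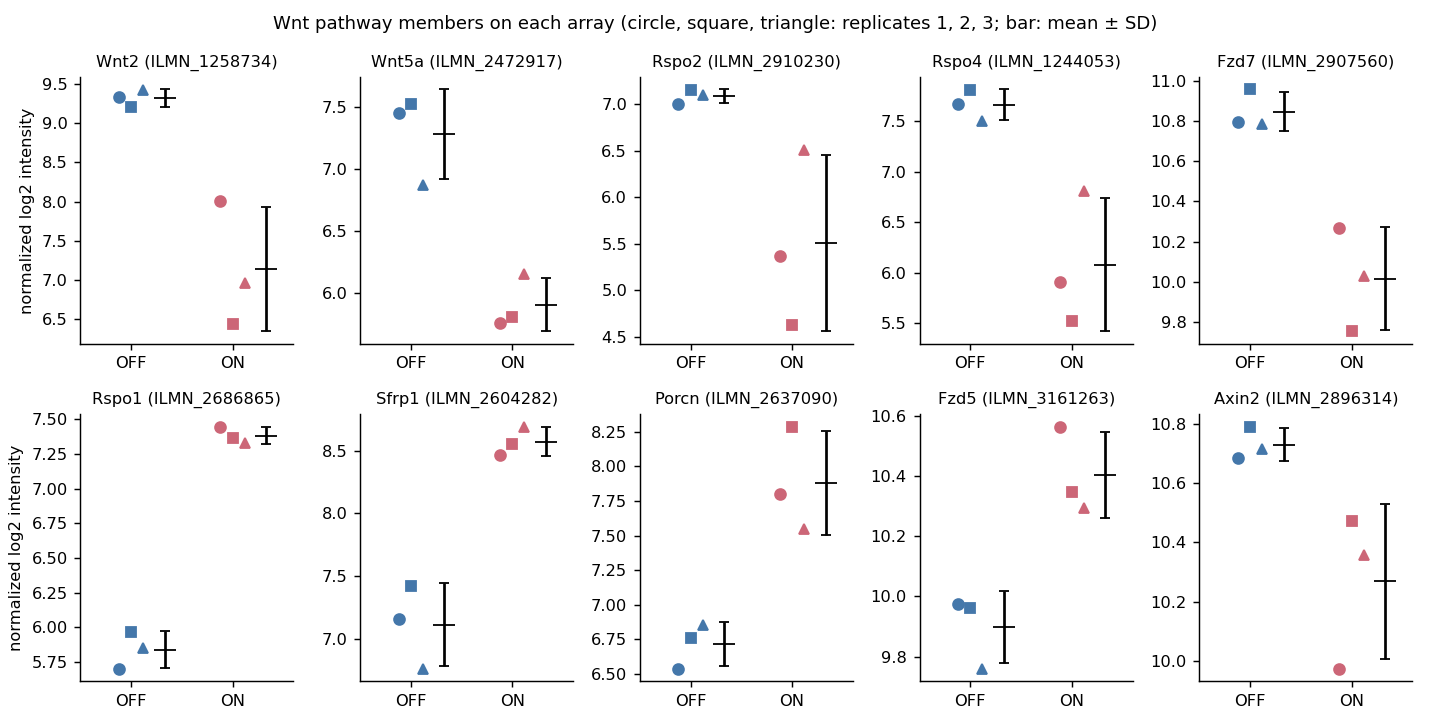
Normalized log2 intensity of 10 Wnt pathway members on the 3 hSRY-OFF (blue) and 3 hSRY-ON (red) arrays, with the mean and SD beside each group. Each panel has its own vertical axis, which does not start at 0. The groups do not overlap in any panel, and the change of Axin2 did not pass the threshold (adjusted p = 0.0651).

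Porcn, the enzyme that attaches the lipid every Wnt needs for secretion, moved against most ligands. Its 2 probes read 6.54, 6.76 and 6.85 in hSRY-OFF against 7.80, 8.29 and 7.55 in hSRY-ON, and 9.34, 9.50 and 9.50 against 10.07, 10.63 and 10.26. All hSRY-ON arrays were above all hSRY-OFF arrays on both. The rises were 1.16 (SE 0.20; limma adjusted p = 0.00847) and 0.87 (adjusted p = 0.0107), the second of which was not called with hSRY-OFF array 1 left out.

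R-spondins are secreted proteins that raise Wnt responses by keeping Frizzled receptors on the cell surface, and the 4 tested genes did not move together. Rspo1, the member that supports ovarian fate in the gonad, read 5.70, 5.97 and 5.85 in hSRY-OFF and 7.45, 7.37 and 7.33 in hSRY-ON lungs. The hSRY-ON arrays lay close together and at least 1.36 above every hSRY-OFF array. The means of 5.84 ± 0.13 (SD, n = 3) and 7.38 ± 0.06 (SD, n = 3) differed by 1.54 (SE 0.12), or 2.91-fold (limma adjusted p = 0.000714), the smallest adjusted p of the members.

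Rspo2, which is needed for the branching of the embryonic lung, read 7.01, 7.15 and 7.10 in hSRY-OFF and 5.37, 4.63 and 6.51 in hSRY-ON. It was detected on 1 hSRY-ON array. Rspo4, known from nail formation, read 7.67, 7.81 and 7.50 against 5.90, 5.53 and 6.81. The groups of arrays were apart at both genes, with hSRY-ON replicate 3 nearest to hSRY-OFF and hSRY-ON replicate 2 farthest. The changes were -1.58 at Rspo2 (SE 0.42; limma adjusted p = 0.0330) and -1.58 at Rspo4 (SE 0.31; adjusted p = 0.0120). Rspo2 lost its call when any 1 hSRY-OFF array or hSRY-ON array 1 or 2 was left out, and Rspo4 when hSRY-OFF array 2 was. Rspo3, an R-spondin of endothelial cells, had a change of 0.35 with a 95% confidence interval of -0.18 to 0.87 (adjusted p = 0.282).

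The promoters of the largest fall among the ligands, of the largest rise among the R-spondins and of a fall whose promoter holds a TCF motif are given here, as the 250 bases before an annotated start from RefSeq (GRCm38.p6), 5′ to 3′ on the gene's strand. They lie at chr6:18030446-18030695 (Wnt2, minus strand), at chr6:119449387-119449636 (Wnt5b, minus strand) and at chr4:124986180-124986429 (Rspo1, plus strand). Wnt5b has 3 annotated starts, and the window with the motif is the one printed. Capitals, present in that window alone, mark the letters CTTTGAT, a core motif of TCF and LEF proteins.
Wnt2: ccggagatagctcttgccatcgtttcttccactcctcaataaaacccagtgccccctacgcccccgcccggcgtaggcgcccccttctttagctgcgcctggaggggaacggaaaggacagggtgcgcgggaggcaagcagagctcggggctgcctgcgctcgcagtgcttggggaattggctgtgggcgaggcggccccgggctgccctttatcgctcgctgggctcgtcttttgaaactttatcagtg
Wnt5b: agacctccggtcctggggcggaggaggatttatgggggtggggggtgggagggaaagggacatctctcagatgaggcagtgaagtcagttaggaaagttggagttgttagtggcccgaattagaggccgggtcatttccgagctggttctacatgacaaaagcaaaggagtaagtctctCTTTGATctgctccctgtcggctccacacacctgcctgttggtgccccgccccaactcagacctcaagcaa
Rspo1: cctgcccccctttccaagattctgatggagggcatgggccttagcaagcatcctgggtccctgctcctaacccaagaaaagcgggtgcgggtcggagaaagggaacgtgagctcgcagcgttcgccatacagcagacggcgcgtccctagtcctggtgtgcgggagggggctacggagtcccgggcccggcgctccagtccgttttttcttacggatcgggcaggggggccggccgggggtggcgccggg
These and the related letters CTTTGAA were searched on both strands, as were AACAAT, letters that SRY and SOX proteins are known to bind. Over all 32851 promoter windows of the same length, CTTTGAT was present in 3.21%, CTTTGAA in 4.46% and AACAAT in 9.42%. Of the 35 tested member genes, 21 had a promoter in the table, with 27 windows. Among the 9 that fell, 1 of 14 windows held CTTTGAT, 71 bases before the start. It is the printed 1 of the 3 windows of Wnt5b, and the other 2 did not hold it. Neither CTTTGAA nor AACAAT was found in these 14 windows or in the 2 windows of the 2 members that rose. AACAAT was present 102 bases before the start in Fzd10 and in Tcf7l2, which were not called. A match of letters describes the sequence and is not a binding site.

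Among receptors and co-receptors, 5 of 13 tested probes were called lower (38.5%, against 13.3% of all tested probes) and 1 higher (7.69%, against 13.6%). None of the 6 calls was kept with hSRY-OFF array 2 left out. Fzd7, a Frizzled of progenitor cells, fell from 10.79, 10.96 and 10.78 to 10.27, 9.75 and 10.03, with no overlap. Its means were 10.85 ± 0.10 (SD, n = 3) and 10.02 ± 0.26 (SD, n = 3), a change of -0.83 (SE 0.16; limma adjusted p = 0.0107). Fzd2, a receptor of Wnt5a and of β-catenin-branch ligands, fell from 9.35, 9.27 and 9.08 to 8.77, 8.42 and 8.63 (-0.62, adjusted p = 0.0187). Fzd3, known from axon guidance and detected on 1 hSRY-ON array, changed by -0.61 (adjusted p = 0.0258), and Fzd4, a receptor of vessel growth, by -0.68 on 1 probe (adjusted p = 0.0442) and by -0.42 on the other (adjusted p = 0.160). Fzd5, a Frizzled of epithelia, was the 1 receptor that rose, from 9.98, 9.96 and 9.76 to 10.56, 10.35 and 10.30 (0.50, adjusted p = 0.0299). Leaving out either other hSRY-OFF array ended those of Fzd3, Fzd4 and Fzd5, and hSRY-OFF array 1 that of Fzd2. Leaving out hSRY-ON array 2 ended the calls of Fzd2 and Fzd5, and array 1 or 3 that of Fzd4. Fzd4 was called in 5 of 15 alternatives.

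Of the co-receptors, Lrp6 was detected on 1 hSRY-ON array and changed by -0.59 (limma adjusted p = 0.0317). That call ended when any 1 hSRY-OFF array or hSRY-ON array 2 or 3 was left out. The intervals of Lrp5 (-0.05, 95% confidence interval -0.43 to 0.34, adjusted p = 0.848) and of Fzd6 (0.07, -0.22 to 0.36, adjusted p = 0.688) included 0. The Wnt5a receptors Ror1 and Ror2 had changes of -0.73 (adjusted p = 0.0705) and -0.17 (95% confidence interval -0.60 to 0.25, adjusted p = 0.498). The groups did not overlap at Ror1, and it passed the threshold with median scaling (adjusted p = 0.0495), with array weights (0.0403) and without hSRY-ON array 3 (0.00543). Fzd8 and Fzd10 were not called either, with changes of -0.30 and -0.22.

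Secreted inhibitors differed in direction. Sfrp1, which binds Wnt proteins outside the cell, read 7.15, 7.42 and 6.76 in hSRY-OFF and 8.46, 8.55 and 8.69 in hSRY-ON lungs. The groups were clearly apart and the hSRY-ON arrays close together. The change of 1.46 (SE 0.18), or 2.75-fold, had a limma adjusted p of 0.00296. Dkk3, a member of the Dickkopf family that differs from the others in its binding, fell on 2 of its 3 probes. The probe of smallest p read 11.60, 11.74 and 11.85 against 11.24, 10.82 and 11.01, with no overlap (-0.71, adjusted p = 0.0149), and the others had changes of -0.78 (adjusted p = 0.0276) and -0.45 (adjusted p = 0.190). The first of these calls ended when hSRY-OFF array 2 or 3 was left out, and the second when any 1 hSRY-OFF array or hSRY-ON array 2 or 3 was. Wif1, a Wnt-binding inhibitor of the lung, read 8.98, 9.28 and 9.36 against 9.11, 8.44 and 8.76, with overlapping groups and a change of -0.43 (95% confidence interval -0.90 to 0.03, adjusted p = 0.141). It passed the threshold without hSRY-ON replicate 1.

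Inside the cell, 1 of 6 tested probes of the cytoplasmic components was called, and it was lower. That is 16.7%, where 26.9% of all tested probes were called and 13.3% were called lower. Nkd1, a feedback inhibitor that binds Dishevelled and is itself switched on by the pathway, fell from 6.89, 6.91 and 6.61 to 6.28, 6.22 and 6.22 (-0.56, SE 0.13; limma adjusted p = 0.0184). The call was lost without hSRY-OFF replicate 1 or 2. Axin2, a scaffold of the destruction complex and the most used readout of β-catenin signalling, read 10.68, 10.79 and 10.71 in hSRY-OFF and 9.97, 10.47 and 10.36 in hSRY-ON. Its groups did not overlap, with hSRY-ON replicate 1 the lowest, but its change of -0.46 (95% confidence interval -0.82 to -0.10) missed the threshold (adjusted p = 0.0651). The scaffold Apc had a change of -0.40 (adjusted p = 0.0896), both probes of Dvl1 of 0.11 and Dvl2 of -0.06.

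In the nucleus, both probes of Lef1, a DNA-binding partner of β-catenin and a target of the pathway, fell out of detection. The first read 5.73, 5.84 and 5.71 in hSRY-OFF, where it was detected on all arrays, and 4.79, 4.90 and 4.72 in hSRY-ON, where it was detected on none. The second read 5.49, 5.53 and 5.54 against 4.60, 4.63 and 4.80 and was likewise not detected in hSRY-ON. Set against the lowest detected level, the falls were at least 1.28-fold (limma adjusted p = 0.00249) and at least 1.09-fold (adjusted p = 0.00352). These p-values belong to the fitted changes and not to the bounds. Both probes passed the filter through their hSRY-OFF arrays alone. Tcf7l2, the TCF of many epithelia, was higher on all hSRY-ON arrays by its tested probe, at 10.03, 10.89 and 10.20 against 9.67, 9.86 and 9.72, but was not called (0.62, 95% confidence interval 0.09 to 1.15, adjusted p = 0.0804), except with array weights or without hSRY-ON replicate 1. The other Tcf7l2 probes were detected on no array.

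Lef1 is also a gene of T cells, whose markers moved in the same direction. Of 12 T cell markers 7 were tested, and 5 of these fell (71.4%, against 13.3% of all tested probes) and none rose. Cd4, Cd8a, Rag1, Dntt and Trat1 did not pass the filter. The summed linear level of the 7 tested markers was 1936 to 2179 on the hSRY-OFF arrays and 495 to 1381 on the hSRY-ON arrays, lowest in hSRY-ON replicate 1. Cd3e, a part of the T cell receptor, was detected on all 6 arrays and read 7.93, 8.02 and 7.90 against 5.64, 5.94 and 7.04. The part of these cells in the falls of Lef1 and Tcf7 was not tested.

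Genes known as targets of β-catenin with TCF and LEF were examined as a readout. Of 16 such genes 13 were tested, 8 were called lower and none higher, or 61.5% lower where 13.3% of all tested probes were, with a median change of -0.60. This list, like the other gene lists here, was chosen with earlier results of these data known. Axin2, Lef1 and Nkd1 belong to this list and to the members, and Tcf7 also to the core list below. Axin2 was not called (-0.46, limma adjusted p = 0.0651), and Lef1, counted among the 8, passed the filter through its hSRY-OFF arrays alone. Wisp1, a matricellular protein of the mesenchyme, fell from 10.43, 10.67 and 10.80 to 9.37, 9.02 and 9.41 (-1.37, limma adjusted p = 0.00241), and by more on a second probe (-1.96, adjusted p = 0.00175). Its groups were well apart. Tcf7, a TCF of T cells and of early mesoderm, changed by -1.24 (adjusted p = 0.0119). Its second probe, not detected in hSRY-ON, was at least 1.42-fold lower (adjusted p = 0.00588, for the fitted change). That probe passed the filter through its hSRY-OFF arrays alone. The remaining falls were at the receptor gene Tnfrsf19 (-1.32, adjusted p = 0.0227, and -1.68 on a second probe, adjusted p = 0.00321), the transcription factor gene Sp5 (-0.97, adjusted p = 0.0354), and the growth genes Myc (-0.77, adjusted p = 0.0183) and Ccnd1 (-0.60, adjusted p = 0.0360). Myc was detected on 1 hSRY-ON array, and its call ended without hSRY-OFF array 1 or 2. The Wnt-inactivating enzyme Notum had a change of the same size without a call (-0.60, adjusted p = 0.0921), and was called without hSRY-ON array 3. Cd44, Rnf43 and Apcdd1 were not called and had changes of 0.00, 0.01 and 0.28.

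The count of readout calls also changed when single arrays were left out. The called targets kept a negative change in every such fit that gave a value. With hSRY-OFF array 1 left out 2 of 12 tested targets were called lower (16.7%, against 4.42% of all tested probes), with array 2 left out 1 of 12 (8.33% against 4.85%) and with array 3 left out 4 of 12 (33.3% against 6.94%). Wisp1 kept its call under every alternative, and Tcf7 lost that of its first probe without hSRY-OFF array 2. Markers of cycling cells moved with Myc and Ccnd1. Of 12 such markers 8 were tested, and 7 fell (87.5%, against 13.3% of all tested probes). The tested markers had a summed level of 8446 to 10475 in hSRY-OFF and 2753 to 6061 in hSRY-ON lungs. Their part in the readout was not tested.

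**Figure D3:**
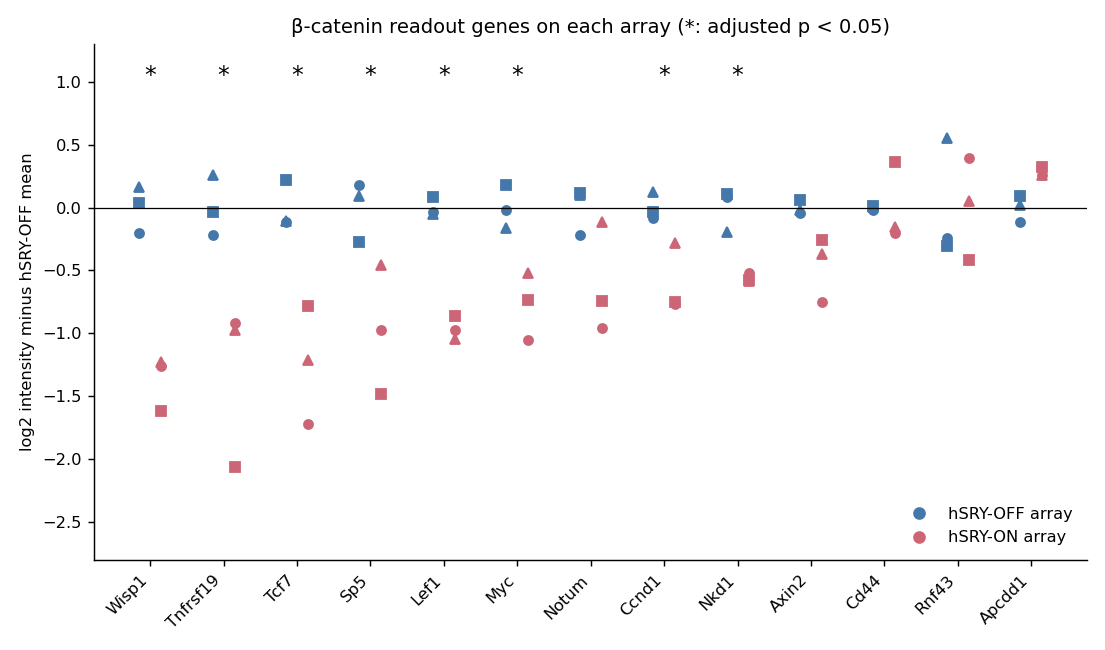
Normalized log2 intensity of each tested β-catenin readout gene on each array, minus its hSRY-OFF mean. Colours mark the groups, symbols the replicates and asterisks an adjusted p under 0.05. The 8 genes with an asterisk have their hSRY-ON arrays below 0. The hSRY-ON values of Lef1 are below detection.

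Other genes of the pathway, from 3 lists, changed in both directions. Of 77 genes 70 were on the array and 49 were tested, and 4 rose and 5 fell, which is 18.4% where 26.9% of all tested probes were called. In the core list of destruction complex, kinase and nuclear proteins, 5 of 30 tested genes were called (16.7%), with a median change of -0.07. Frat1 and Frat2, which bind the kinase that marks β-catenin for destruction, rose by 0.71 (adjusted p = 0.0314) and 0.61 (adjusted p = 0.0422). Csnk1e, a kinase of Dishevelled, changed by -0.61 on 1 probe (adjusted p = 0.0139) and by -0.26 on another (adjusted p = 0.266). Dact1, a regulator of Dishevelled, changed by -0.95 (adjusted p = 0.0240), and Tcf7 is described above. β-catenin itself, Ctnnb1, was not called on either of its tested probes (-0.62, adjusted p = 0.153 and -0.66, adjusted p = 0.0841), and another probe was detected on no array. Without hSRY-ON array 1 the probe with the change of -0.62 was called, with a change of -0.97 (adjusted p = 0.00440). Gpr177, the array's name for the Wnt carrier Wls, had a change of -0.26 (adjusted p = 0.159).

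Among cell surface modulators, the glypican Gpc3 rose by 0.51 (limma adjusted p = 0.0132) and the receptor Ryk changed by -0.43 (adjusted p = 0.0364). These were the only called genes of 11 tested (18.2%, against 26.9% of all tested probes). Among planar polarity genes, which order cells within a sheet, 2 of 8 were called (25%, also against 26.9%). Celsr3 was not detected in hSRY-OFF and was at least 1.71-fold higher in hSRY-ON (adjusted p = 0.00383, for the fitted change). Its probe passed the filter through its hSRY-ON arrays alone, and another Celsr3 probe was detected on no array. Vangl2 changed by -0.95 (adjusted p = 0.0259). Across the 3 lists the count of 9 became 2, 2 and 5 with hSRY-OFF array 1, 2 or 3 left out (4.26%, 4.17% and 10.2%, against 11.2%, 12.1% and 15.5% of all tested probes) and 3 with hSRY-ON array 2 left out (6.38% against 17.7%).

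Markers of other cell types also moved, where 13.6% of all tested probes were called higher and 13.3% lower. All 3 tested genes of the mesothelial list, Msln, Upk3b and Krt19, rose, beside the rise of Rspo1. Their summed level was 3810 to 4073 in hSRY-OFF and 8012 to 11325 in hSRY-ON. Wt1 and Lrrn4 of this list were not tested. Of 9 tested fibroblast markers 1 rose (Dcn) and 1 fell (Col1a1), with summed levels of 59493 to 60964 and 46306 to 56459. A summed level follows its brightest probes, here above all Mfap4, which was not called (limma adjusted p = 0.0684). Mfap4 read 15.03, 15.03 and 15.07 in hSRY-OFF and 14.46, 14.38 and 14.90 in hSRY-ON. Of 6 tested smooth muscle markers 4 fell, with 51936 to 55832 and 41881 to 48106. Both lists are given beside the falls of Wnt2, Wnt5a and Rspo2. Endothelial markers (3 of 8 lower, 1 higher) summed to 50041 to 53309 and 38113 to 41965, beside the fall of Fzd4. On the epithelial side, 6 of 7 ciliated, 3 of 7 type II and 2 of 4 airway secretory markers rose and none fell, and no type I marker of 4 was called. Of 6 macrophage markers 5 rose, and of 8 cardiac muscle markers 2 rose and 2 fell. The part of any of these cells in the changes of the Wnt pathway members was not tested.

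**Figure D4:**
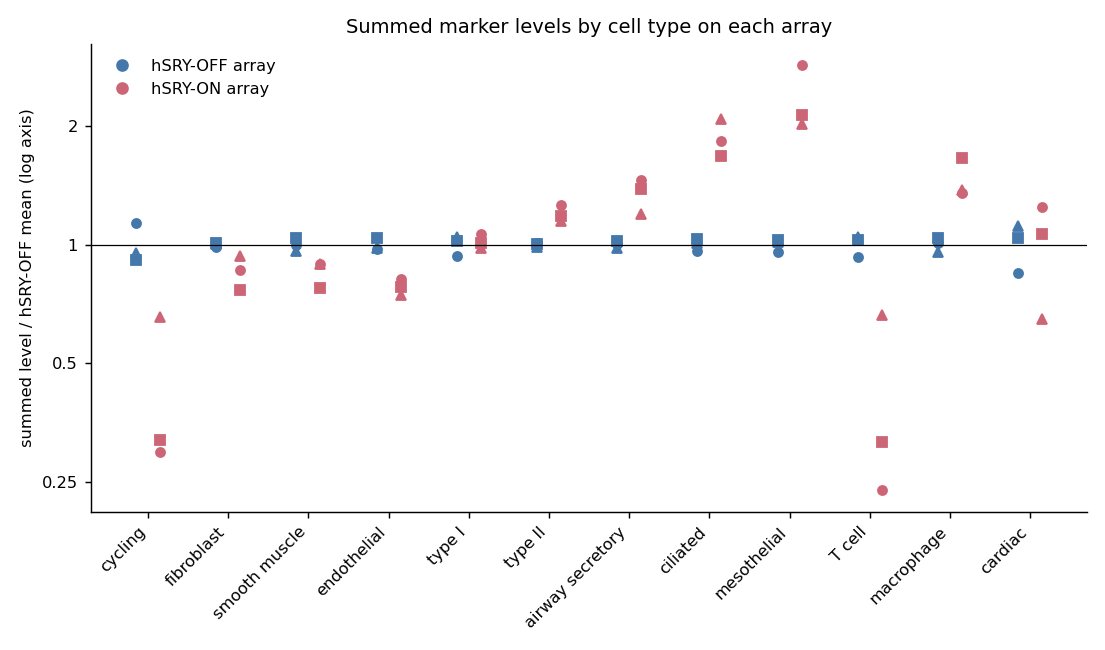
Summed linear level of the tested markers of 12 cell types on each array, divided by the hSRY-OFF mean, on a log axis. Colours mark the groups and symbols the replicates. The hSRY-ON arrays lie lower for the T cell, cycling, fibroblast, smooth muscle and endothelial lists. A sum follows its brightest markers, in the fibroblast list above all Mfap4, which was not called. They lie higher for the mesothelial, ciliated, macrophage, type II and airway secretory lists. The 2 groups overlap for the type I and cardiac lists.

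The hSRY-ON arrays were more spread than the hSRY-OFF arrays. The median SD of the tested members was 0.132 in hSRY-OFF and 0.258 in hSRY-ON, and 35 of 44 (79.5%) had the larger SD in hSRY-ON, as did 73.7% of all tested probes. Among the 23 called members, the hSRY-ON array nearest to the hSRY-OFF mean was replicate 3 for 11, replicate 1 for 10 and replicate 2 for 2. Over all called probes these shares were 49.2%, 35.5% and 15.3%.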

How the data were processed

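Intensities and detection p-values of 6 arrays were used as the authors deposited them. The deposited intensity of a probe is the mean signal of its beads on a linear scale, neither background-corrected nor normalized, and array medians ranged from 177.1 to 204.0. The deposited detection p-value sets a probe against the negative controls of its array. The submitters' processing notes name limma, and the study's methods name TCC, a method for counts that was not used because the values are intensities. The software that summarised the beads is not given in the sources used here.

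R 4.3.3 and limma 3.58.1 were used. Background correction drew on the detection p-values (as in neqc, with an offset of 16) and was followed by quantile normalization and log2. The filter on detection (p under 0.05, 3 or more arrays) left 13841 of 25697 probes (53.9%) for 10292 symbols. Groups, taken from the sample labels, were compared by lmFit and eBayes with no covariate and with Benjamini-Hochberg adjustment over all kept probes. No arrays held identical values. A probe not detected on any array of 1 group is given as a bound, the mean of the other group against the higher, on each array, of its own value and the lowest detected value. The p-value printed beside a bound is that of the fitted change. Probes were kept apart, and genes of lists are represented by the tested probe of highest mean.

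The members, the 16 gene lists and the tests were chosen with earlier results of these data known. Named by rule were every called member at its called probe of smallest p, 20 members whatever their result, and the 2 called genes of smallest p in each list of other pathway and target genes. Other genes were named after their values were seen. Alternatives were no background correction, an offset of 50, median scaling, other filters on detection (at least 1 array, a detection p under 0.01, all probes), a variance trend with robust estimation, array weights, the replicate number as a block and leaving out each array. Slide and scan could not be examined with the table used. Promoters came from a RefSeq table of GRCm38.p6. The code was tested on simulated data.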

Additional observations from a re-analysis of the deposited data

How the results depend on the processing

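With 3 arrays a group, leaving out 1 array changed the counts most. Over these fits the called member probes ranged from 6 to 22 (23 with all arrays), those higher from 3 to 8 (5) and those lower from 2 to 15 (18), the median member change from -0.48 to -0.31, the other pathway genes called from 2 to 13 (9) and the target genes called from 1 to 9 (8). The median change of -0.41 became -0.16 without background correction, -0.32 with an offset of 50 and -0.0497 over all 74 probes, 28 of which were detected on no array. Array weights gave 8 members higher. No other processing alternative moved a count by over 1.5 times. Without background correction 8 target genes were called and 7 of them were lower, so the absence of called rises among the targets did not hold there. Arrays of the 2 groups with the same replicate number had correlations of deviations of -0.107, 0.0958 and -0.0927. Taken from groups of 3 arrays, these values cannot show whether the arrays were paired. With the number as a replicate block 16 members were called, 36.4% against 19.2% of all probes, all of them among the 23. Processing alone ended calls at Fzd3, Fzd4, Fzd5, Lrp6, Nkd1, Rspo2, Wnt10b, Wnt3a, Wnt5b and the second probes of Wnt5a and Dkk3 among the members, and at Vangl2, Ryk, Frat1, Frat2, Myc, Sp5, Ccnd1 and the second probe of Gpc3 among the others, and the cause was not tested. Axin2 passed the threshold in 3 alternatives (no background correction, an offset of 50, and the variance trend with robust estimation). The sign turned for Lrp5, which ranged from -0.195 to 0.0852 over the fits that left out 1 array (0.0852 without hSRY-OFF replicate 3). It turned for no other gene followed through the alternatives. Cd44, Rnf43, Apcdd1, Wnt7a, Dvl1, Dvl2, Fzd6, Fzd8, Fzd10 and Gpr177 were not followed. Changes near background are limited by signal.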
